A study of Mus musculus with 2 samples.

Results

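The 6 genes described here encode zinc finger transcription factors that bind GC-rich DNA: the SP factors Sp1, Sp2, Sp3 and Sp4, and the GC-box binding partners Maz and Patz1. They were found by their symbols among the 27514 genes of the count matrix, and each symbol matched a single row. The dorsal aorta region was dissected at embryonic day 10.5 (E10.5), and its cells were sorted as Ter119-negative, CD41-low or negative, CD31+, CD144+ and ESAM+ cells. Each genotype was captured once in 10x Chromium 3' version 3 chemistry, which gave 4451 wild-type and 3954 SP3-null cells. Embryos came from matings of Sp3+/- with Sp3+/- mice with a genetic background mixed from C57Bl6/J and B6129SF1/J, embryos of the same genotype were pooled, and the SP3-null embryos carried the germline allele Sp3tm1Sus on both chromosomes. How many embryos went into a pool is not given in the sources used here. With a single library for each genotype, the effects of genotype, of the embryos pooled and of the capture cannot be told apart, and no test between genotypes was possible.

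SP factors are a family of proteins with a highly similar DNA-binding domain of zinc fingers at the carboxy terminus, and they recognize the GC box, a short GC-rich element found in a large share of mammalian promoters. SP1 is a ubiquitous activator of housekeeping and regulated genes. SP3 binds the same element as SP1 and can activate or repress, depending on the promoter and on its modification by SUMO, and Sp3 is needed for normal development of several tissues of the mouse embryo, blood among them. SP4 is best known from neurons, and SP2 binds many promoters but relies less on the GC box. MAZ, the MYC-associated zinc finger protein, binds runs of G and also acts at chromatin boundaries together with CTCF. PATZ1 is a BTB domain zinc finger protein that binds GC-rich DNA and is known for roles in T-cell development.

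Each of the 6 genes has a GC box in the window of at least 1 annotated start. The 250 bases upstream of the annotated start of Sp1, Sp3, Sp4 and Patz1 are printed here from the RefSeq table of the GRCm38.p6 assembly, 5' to 3' on the strand of the gene, because they differ in the number and orientation of GC boxes. Capitals mark GGGCGG on either strand, so that CCGCCC marks the same element on the opposite strand. The sequences lie at chr15:102406066-102406315 (plus strand) for Sp1, chr2:72980447-72980696 (minus strand) for Sp3, chr12:118301441-118301690 (minus strand) for Sp4 and chr11:3288881-3289130 (plus strand) for Patz1.
Sp1: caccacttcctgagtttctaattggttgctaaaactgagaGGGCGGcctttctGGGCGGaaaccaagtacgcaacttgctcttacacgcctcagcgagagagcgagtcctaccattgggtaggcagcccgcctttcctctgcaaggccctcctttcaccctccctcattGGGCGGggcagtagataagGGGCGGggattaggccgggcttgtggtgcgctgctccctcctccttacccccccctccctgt
Sp3: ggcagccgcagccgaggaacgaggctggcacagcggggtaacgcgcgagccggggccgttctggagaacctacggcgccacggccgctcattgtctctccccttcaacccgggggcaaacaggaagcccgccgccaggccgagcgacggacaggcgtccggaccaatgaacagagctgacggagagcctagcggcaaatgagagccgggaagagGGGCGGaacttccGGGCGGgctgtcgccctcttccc
Sp4: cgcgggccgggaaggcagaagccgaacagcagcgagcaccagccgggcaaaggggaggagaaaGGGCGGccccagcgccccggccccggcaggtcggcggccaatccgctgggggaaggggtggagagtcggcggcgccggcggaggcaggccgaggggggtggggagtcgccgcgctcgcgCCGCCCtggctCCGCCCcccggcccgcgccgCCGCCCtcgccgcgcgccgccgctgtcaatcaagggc
Patz1: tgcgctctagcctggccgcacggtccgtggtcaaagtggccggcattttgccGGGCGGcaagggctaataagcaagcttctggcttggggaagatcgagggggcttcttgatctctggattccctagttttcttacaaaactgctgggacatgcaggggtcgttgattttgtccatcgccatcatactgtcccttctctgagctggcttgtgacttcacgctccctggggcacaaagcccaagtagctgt
These stretches hold 4 GC boxes for Sp1, 2 for Sp3, 4 for Sp4 and 1 for Patz1. Those of Sp1, Sp3 and Patz1 all read GGGCGG on the strand of the gene, whereas 3 of the 4 of Sp4 read CCGCCC. Over the whole tabulated windows, which add 50 bases past the start, Sp4 had 5 GC boxes, Maz 4 and Sp2 none at its first start. The RefSeq table gave a further start for Sp3 (5 GC boxes), Maz (5) and Patz1 (2), and 2 further starts for Sp2 (2 and 0). Of all 32851 windows of this length, 35.7% held at least 1 GC box. Of the 8153 expressed genes counted below, 72.1% held one in at least 1 of their windows and 68.0% in their first, so that a GC box was common among expressed genes. A match describes the letters of the window and does not show that a factor binds there.

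All 6 genes were expressed, at very different levels. In the wild-type library Maz had 4014 UMIs over all cells, Sp3 3785, Sp1 2663, Patz1 1977, Sp2 679 and Sp4 550. A UMI counts a captured 3' end once whatever the length of the transcript, and CPM below are UMIs of a gene scaled to 1000000 UMIs of the same cells. For the comparison of genotypes the cells of 6 endothelial classes were summed within each library: arterial endothelium (AE) and venous endothelium (VE), each as Wnt-high and Wnt-low cells, conflux AE, and pre-HE, the pre-hemogenic endothelium. That sum held 42091263 UMIs of 2639 wild-type cells and 39445990 UMIs of 2401 SP3-null cells. Its make-up differed between the libraries. Wnt-high VE gave 20.6% of its wild-type and 28.2% of its SP3-null UMIs, Wnt-low VE 35.7% and 29.9%, and pre-HE 3.65% and 2.26%. Ratios of the sums therefore do not separate levels within a class from class make-up. Endothelial markers, all 6 present in every class, summed to 2072 CPM in wild-type cells against 2005 CPM of the SP3-null sum. Hematopoietic markers summed to 34.6 and 34.2 CPM there, and to between 672 and 951 CPM in the hemogenic endothelium and cluster cells of both libraries. Intervals are exact 95% intervals that cover counting error only. A ratio was called past the threshold when it was beyond 1.2-fold, and of the 10146 genes with 200 or more UMIs in total 12.9% were, 8.82% in the lower and 4.04% in the higher direction.

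Sp3 was the member with fewer transcripts in the SP3-null library, while Sp1 and Patz1 stood at the same level in both. Sp3 had 1947 UMIs, or 46.3 CPM (44.2 to 48.4), in the wild-type sum and 1405 UMIs, or 35.6 CPM (33.8 to 37.5), in the SP3-null sum. The log2 ratio was -0.38 (-0.48 to -0.28), at percentile 4.92 of the 10146 genes. Sp1 stood at 30.7 CPM in each library, with a log2 ratio of 0.00 (-0.11 to 0.11). Patz1 stood at 24.1 CPM in wild-type cells against 24.3 CPM in the SP3-null sum, with a log2 ratio of 0.01 (-0.12 to 0.14).
The 3 other genes had intervals that spanned 0. Maz stood at 49.2 CPM (47.1 to 51.4) in wild-type cells against 46.5 CPM (44.4 to 48.7) in the SP3-null sum, a log2 ratio of -0.08 (-0.17 to 0.01). Sp2 stood at 8.55 and 8.14 CPM, a log2 ratio of -0.07 (-0.29 to 0.15). Sp4 stood at 6.65 and 7.35 CPM, a log2 ratio of 0.14 (-0.10 to 0.39), which placed it at percentile 89.1 of all genes. For these 5 genes a difference past 1.2-fold lay outside the interval of Sp1, Maz and Patz1, and inside that of Sp2 and Sp4, whose UMIs were too few to show it or to leave it out. The median over all 10146 genes was -0.02.

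**Figure D1:**
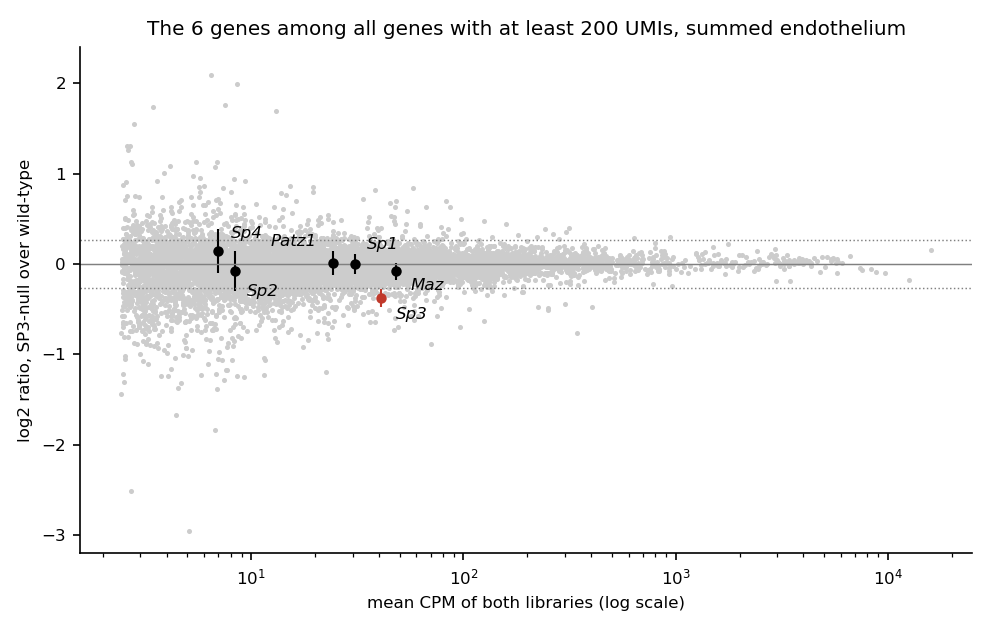
Ratio of SP3-null to wild-type CPM (log2, vertical axis) in the summed endothelium against the mean CPM of both libraries (horizontal log axis). Grey points are the 10146 genes counted, with the 6 genes and their exact 95% counting intervals, Sp3 in red. Dotted lines mark 1.2-fold. Sp3 lies at -0.38, below the lower dotted line, and the other 5 genes lie between -0.08 and 0.14.

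Sp3 transcripts were still abundant in SP3-null cells. The 3' tags of Sp3 do not check the deletion, since how much of the gene the allele removes is not given in those sources. Sp3 lies at chr2:72936430-72980446 and overlaps Hspe1-ps5 and Sp3os, the latter annotated at chr2:72979432-72989249. Whether counting used strand was not given, so that reads of the overlap cannot be assigned with certainty. Sp3os stood at 16.4 CPM in wild-type cells against 16.8 CPM in the SP3-null sum. Among the other members, Maz overlaps Prrt2, which had 0 UMIs in both sums, Sp2 overlaps D030028A08Rik, and Patz1 overlaps Gm12592 and Gm11944.

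The difference in Sp3 was present in every class and of similar size. Wild-type CPM were 45.7 in Wnt-high AE, 48.1 in Wnt-low AE, 47.4 in conflux AE, 51.4 in pre-HE, 56.0 in hemogenic endothelium (HE), 53.6 in intra-aortic cluster cells (IAC), 48.9 in Wnt-high VE, 43.4 in Wnt-low VE and 48.4 in other endothelium. SP3-null CPM in the same order were 35.6, 36.4, 37.8, 34.8, 43.5, 42.2, 37.0, 33.8 and 36.5. The highest SP3-null value, in HE, lay just above the lowest wild-type value, in Wnt-low VE, and every other SP3-null value lay below all wild-type values.
The log2 ratio ran from -0.56 in pre-HE to -0.33 in conflux AE. It was lower past 1.2-fold in 9 of 9 classes. Of all genes, the same was true of 15.7% in Wnt-high AE, 15% in Wnt-low AE, 17.7% in conflux AE, 19.9% in pre-HE, 18.4% in HE, 18.1% in IAC, 14.2% in Wnt-high VE, 11.8% in Wnt-low VE and 11.5% in other endothelium. The counting interval was below 0 in 6 classes and spanned 0 in conflux AE, pre-HE and HE, the classes with the fewest Sp3 UMIs. With each cell given the same weight the ratio lay between -0.68 and -0.34 in the 9 classes. The classes come from the same pair of libraries and are not replicates of each other.

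**Figure D2:**
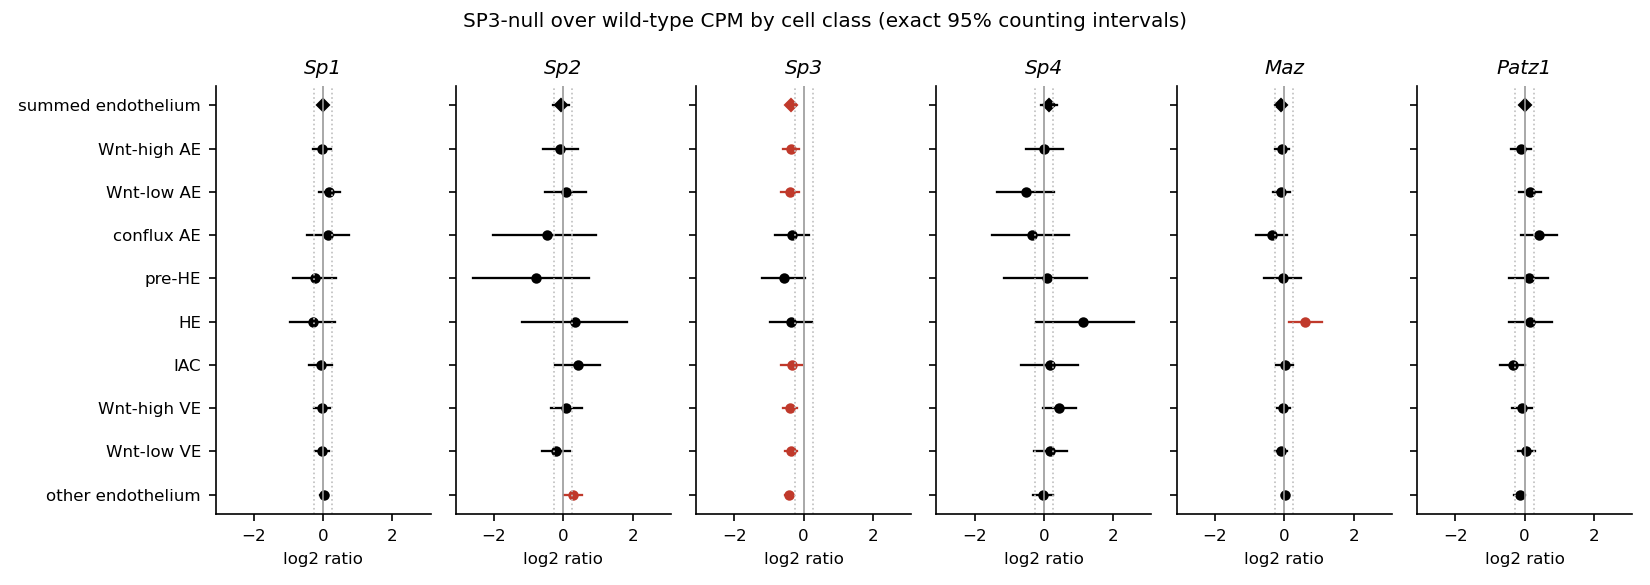
Log2 ratio of SP3-null over wild-type CPM (horizontal axes) of the 6 genes in the summed endothelium (diamonds) and in each of the 9 classes (circles), with exact 95% counting intervals, red where the interval leaves out 0. Dotted lines mark 1.2-fold. Sp3 lies left of 0 in every class, between -0.56 and -0.33, and Maz lies at 0.61 in HE.

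Within a library, the share of each SP factor in the UMIs of Sp1 to Sp4 does not depend on scaling. Sp3 made up 50.2% (48.6% to 51.8%) of 3880 such UMIs in the wild-type sum and 43.5% (41.8% to 45.3%) of 3228 in the SP3-null sum. Against Sp1 alone, which binds the same element, Sp3 made up 60.1% (58.4% to 61.8%) of the wild-type and 53.7% (51.8% to 55.6%) of the SP3-null UMIs of the pair. The share of Sp3 was lower in the SP3-null library in each of the 9 classes. Intervals of the libraries were apart in Wnt-high VE and other endothelium and overlapped in the remaining classes. These shares rest on the same Sp3 counts as the ratios above. Wild-type shares ran from 43.6% in pre-HE to 53.3% in Wnt-low AE, and SP3-null shares from 38.3% in pre-HE to 47.1% in conflux AE. In IAC, Sp1 and Sp3 had 147 UMIs each in the SP3-null library and 187 and 226 in the wild-type library. The shares describe tagged transcripts and not protein.

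**Figure D3:**
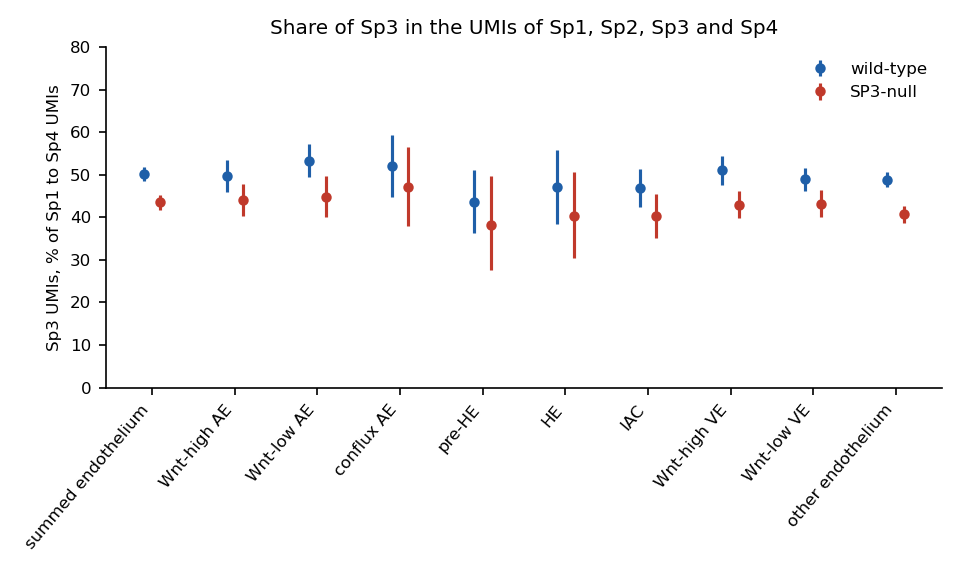
Share of Sp3 in the UMIs of Sp1, Sp2, Sp3 and Sp4 (percent, vertical axis from 0) in the summed endothelium and the 9 classes (horizontal axis), wild-type in blue and SP3-null in red, with exact 95% Clopper-Pearson intervals. The share was 50.2% against 43.5% in the sum, and the SP3-null point lies below the wild-type point in every class.

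Across classes, Sp3 was the most even of the 6 genes. Its highest class was 1.29 times its lowest in both libraries, with HE highest and Wnt-low VE lowest in each. Neighbours in that order had overlapping intervals throughout. The ratio of IAC to AE, as log2, was 0.19 (-0.03 to 0.41) in wild-type cells against 0.23 (-0.04 to 0.50) in the SP3-null library.

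Sp1 was higher in IAC than in AE in both libraries. It stood at 29.3 CPM (26.6 to 32.2) in wild-type and 30.6 CPM (27.8 to 33.6) in SP3-null AE, Wnt-high and Wnt-low cells combined. In pre-HE it stood at 44.9 CPM (34.9 to 56.8) and 38.2 CPM (26.4 to 53.3), in HE at 48.0 CPM (36.1 to 62.6) and 39.1 CPM (27.2 to 54.3), and in IAC at 44.4 CPM (38.2 to 51.2) and 42.2 CPM (35.6 to 49.6). IAC over AE had a log2 ratio of 0.60 (0.34 to 0.85) in wild-type cells against 0.46 (0.18 to 0.74) in the SP3-null library, so that both intervals were above 0. At this step 29.8% of genes were higher past 1.2-fold in both libraries. Macrophage markers summed to 125 and 205 CPM in IAC, wild-type first, with all 6 genes present, against 0 to 4.55 CPM in the 8 other classes, and epithelial markers to 44.6 and 41.9 CPM. Their part in the Sp1 level was not tested. Pre-HE over AE stood at 0.62 (0.23 to 0.99) and 0.32 (-0.23 to 0.82). The SP3-null value rested on few cells and turned to -0.11 without the 3 cells with the most Sp1 UMIs in each class. It was -0.078 against AE cells under 10000 UMIs, where Sp1 stood at 40.3 CPM.
Conflux AE did not stand above AE, at 26.8 CPM (20.3 to 34.7) and 29.7 CPM (21.5 to 39.8). The order of classes showed a single gap, in the wild-type library, where IAC at 44.4 CPM and other endothelium, next in order at 35.2 CPM (33.2 to 37.3), had intervals that did not overlap. The remaining neighbours overlapped in both libraries. The Sp1 counts of SP3-null HE were uneven, with a variance of 3.38 times that expected from the depths of the 40 cells, so that the interval there is too narrow. With each of these cells given the same weight Sp1 had a mean of 44.6 CPM in wild-type HE against 73.0 CPM in SP3-null HE, and the log2 ratio between the libraries turned from -0.30 to 0.71, so that no direction is read for Sp1 in HE.

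Patz1 was higher in AE than in VE and higher again in pre-HE, in both libraries. It was lowest in VE, at 20.9 CPM (19.1 to 22.8) in wild-type cells against 21.1 CPM (19.2 to 23.0) in the SP3-null library. AE followed at 25.8 CPM (23.3 to 28.5) and 25.9 CPM (23.3 to 28.7). Conflux AE stood at 31.9 CPM (24.8 to 40.5) and 42.5 CPM (32.6 to 54.3), and pre-HE was highest at 47.5 CPM (37.2 to 59.7) and 51.6 CPM (37.8 to 68.9).
HE stood at 42.7 and 48.0 CPM and IAC at 39.4 and 31.3 CPM. AE over VE had a log2 ratio of 0.31 (0.11 to 0.50) in wild-type cells against 0.30 (0.10 to 0.50) in the SP3-null library, above 0 in both. Of all genes, 22.5% were higher past 1.2-fold in AE than VE in both libraries and 8.5% were lower. Pre-HE over AE had a log2 ratio of 0.88 (0.50 to 1.24) and 0.99 (0.52 to 1.44), a step at which 23.8% of genes were higher past 1.2-fold in both libraries.
Pre-HE cells were shallower than AE cells, with a median of 9257.5 against 13395 UMIs in the wild-type library. Against AE cells under 10000 UMIs the step of Patz1 was 0.87 (0.34 to 1.40) and 0.88 (0.29 to 1.47). Without the 3 cells with the most Patz1 UMIs in each class it was 0.78 (0.37 to 1.17) and 0.76 (0.22 to 1.26). Markers listed for neural cells summed to 612 and 467 CPM in conflux AE, 843 and 525 CPM in pre-HE and 345 and 370 CPM in HE, wild-type first, against 15.2 to 110 CPM in the 6 other classes. Of the 6 genes 2 had UMIs in pre-HE, and in the summed endothelium Stmn2 gave 119 of 121 CPM in wild-type cells against 73.6 of 76.6 CPM of the SP3-null sum. Epithelial markers summed to 46.8 and 18.0 CPM in pre-HE, 78.2 and 53.6 in HE, and 44.6 and 41.9 in IAC, against 0.379 to 2.35 CPM in the other classes. Mesenchyme markers summed to 14.3 and 29.2 CPM in pre-HE, against 0.949 to 7.42 CPM elsewhere. The part of these lists in the Patz1 levels was not tested. Patz1 was lower in IAC than in HE in both libraries, with log2 ratios of -0.12 (-0.59 to 0.38) and -0.62 (-1.14 to -0.07), wild-type first, and overlapping intervals.

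Maz was similar in AE and VE and higher in IAC. Between AE, VE and other endothelium it stood at 44.5 to 50.9 CPM in both libraries. In IAC it reached 66.6 CPM (59.1 to 74.9) in wild-type cells against 67.2 CPM (58.8 to 76.3) in the SP3-null library. IAC over AE had a log2 ratio of 0.50 (0.30 to 0.71) and 0.60 (0.37 to 0.81), above 0 in both, the step at which 29.8% of genes were higher. The macrophage and epithelial markers given for Sp1 were present in these same IAC cells, and their part in the Maz level was not tested.
HE was the only one of the 9 classes in which the interval of the Maz ratio between libraries left out 0. It had 69 UMIs, 61.3 CPM (47.7 to 77.6), in 59 wild-type HE cells and 84 UMIs, 93.8 CPM (74.8 to 116), in 40 SP3-null HE cells, a log2 ratio of 0.61 (0.14 to 1.09). In HE 21.3% of genes were higher past 1.2-fold. That threshold is smaller than the Maz ratio, and the share of genes at the Maz ratio was not counted. In the SP3-null library 3 cells held 20 of the 84 UMIs. Without the 3 cells with the most Maz UMIs in each library the ratio was 0.65 (0.11 to 1.19), and with each cell given the same weight it was 0.43. The libraries also differed in the sex-linked transcripts of this class. The Y-linked genes stood at 32.9 and 117 CPM, wild-type first, and Xist at 692 and 308 CPM. This was not particular to HE. In IAC the Y-linked genes stood at 55.7 and 122 CPM and Xist at 320 and 190 CPM. The Maz log2 ratio of IAC was 0.01 (-0.25 to 0.27). Xist stood at 354 and 689 CPM in conflux AE. The part of sex-linked differences in the Maz ratios was not tested. In conflux AE Maz stood at 58.2 CPM (48.4 to 69.4) in wild-type cells against 45.2 CPM (35.0 to 57.4) in the SP3-null library, a log2 ratio of -0.37 (-0.82 to 0.07).

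Sp4 was the scarcest member, at 6.92 CPM over all wild-type and 7.38 CPM over all SP3-null cells. In AE it was higher in Wnt-high than in Wnt-low cells, at 7.37 against 5.68 CPM in wild-type cells against 7.43 against 3.98 CPM in the SP3-null library. The log2 ratios were 0.38 (-0.23 to 0.99) and 0.90 (0.17 to 1.68), a step at which 13.2% of genes were higher past 1.2-fold in both libraries. VE gave the same order, at 6.92 against 5.59 CPM and 9.43 against 6.36 CPM, with log2 ratios of 0.31 (-0.19 to 0.80) and 0.57 (0.13 to 1.01), where 9.9% of genes were past the threshold in both. The interval was above 0 in the SP3-null library and spanned 0 in the wild-type library for each vessel type.
Pre-HE over AE stood at 0.84 (0.03 to 1.58) and 1.01 (-0.05 to 1.92) on the log2 scale, from 18 and 11 UMIs in pre-HE. Between the libraries Sp4 was higher in SP3-null VE, at 6.08 CPM (5.12 to 7.15) against 7.85 CPM (6.75 to 9.09), a log2 ratio of 0.37 (0.05 to 0.70). In VE 7.23% of genes were higher past 1.2-fold. Within its classes the intervals spanned 0, at 0.45 (-0.02 to 0.93) in Wnt-high and 0.19 (-0.28 to 0.65) in Wnt-low VE, and with each cell given the same weight the values were 0.58 and -0.02. Wnt-high cells gave 36.6% of the VE UMIs in the wild-type and 48.6% of those in the SP3-null library. In AE the log2 ratio was -0.08 (-0.52 to 0.35), with an interval that overlapped that of VE.

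Sp2 was low and similar in AE and VE, at 8.42 and 8.34 CPM in AE and 8.73 and 8.33 CPM in VE. Its lowest class in both libraries was conflux AE, at 6.57 CPM (3.59 to 11.03) and 4.72 CPM (1.90 to 9.72), from 14 and 7 UMIs. Sp2 also varied with depth inside AE. Cells under 10000 UMIs had 2.41 CPM (0.782 to 5.62) in wild-type cells against 4.91 CPM (2.35 to 9.03) in the SP3-null library, while deeper cells had 9.41 CPM (7.80 to 11.3) and 8.92 CPM (7.31 to 10.8). The wild-type intervals did not overlap, and conflux AE is a shallow class, with medians of 9248.5 and 8850 UMIs per cell. Pre-HE was about as shallow, with medians of 9257.5 and 9163 UMIs. There Sp2 stood at 9.76 CPM (5.46 to 16.1) in wild-type and 5.61 CPM (1.82 to 13.1) in SP3-null cells. The part of depth in the Sp2 levels of these classes was not tested.
In other endothelium Sp2 was higher in the SP3-null library, at 8.36 CPM (7.39 to 9.43) against 10.1 CPM (8.98 to 11.4), a log2 ratio of 0.28 (0.03 to 0.52), where 6.56% of genes were higher past 1.2-fold. The summed endothelium gave -0.07.

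**Figure D4:**
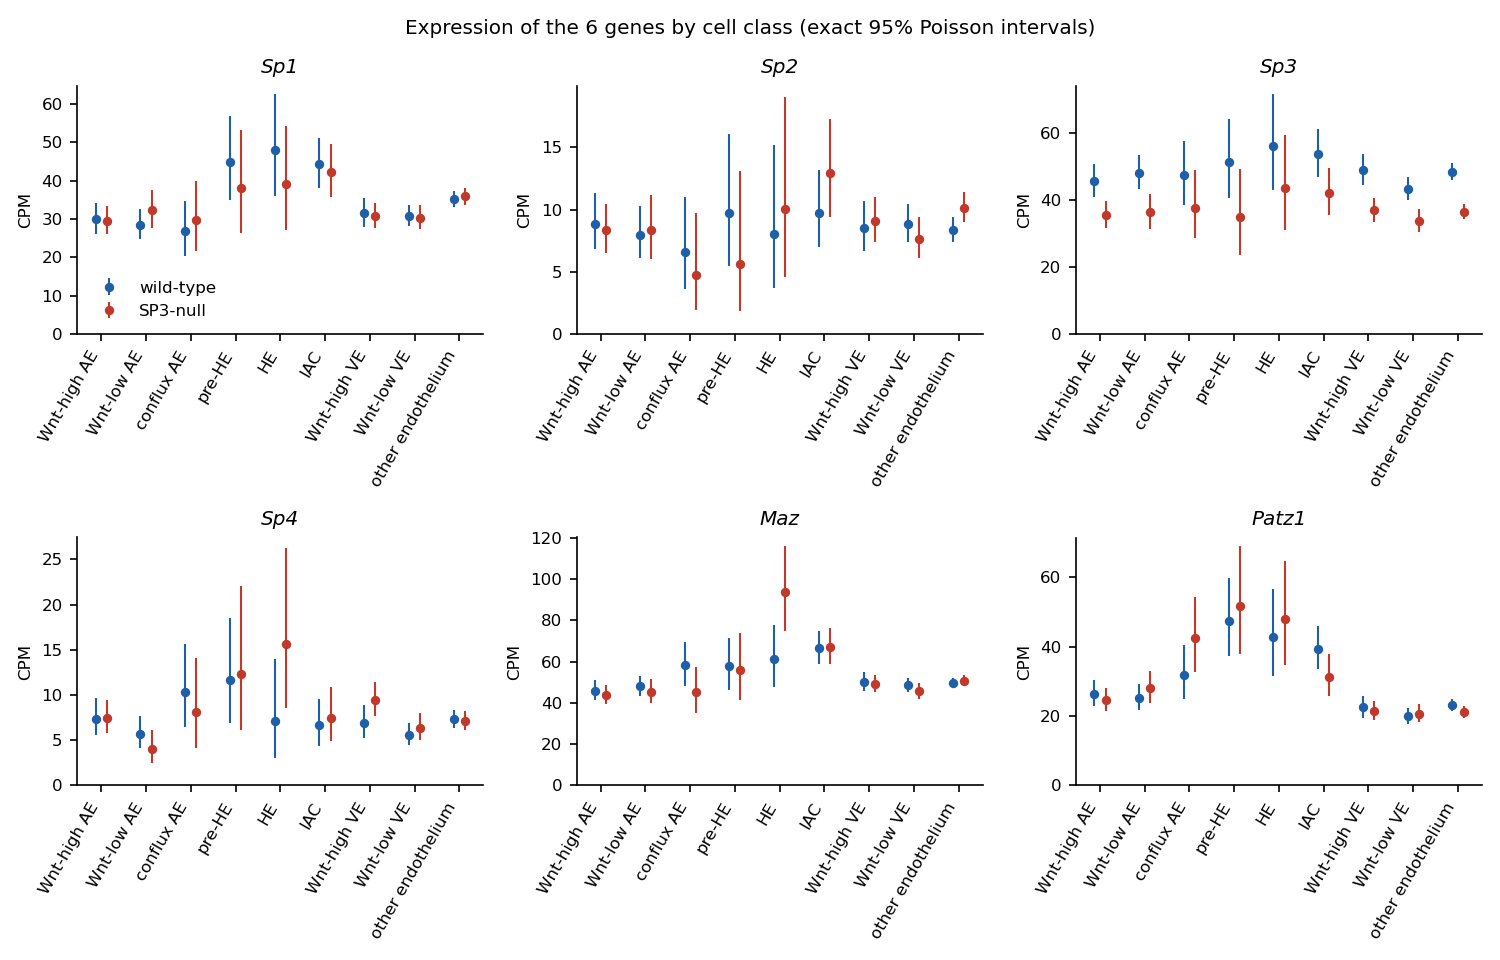
CPM (vertical axes from 0) of the 6 genes in each of the 9 classes (horizontal axes), wild-type in blue and SP3-null in red, with exact 95% Poisson intervals. Patz1 goes from 20.0 and 20.7 CPM in Wnt-low VE to 47.5 and 51.6 CPM in pre-HE, Maz peaks at 93.8 CPM in SP3-null HE, and Sp3 lies lower in the SP3-null library in every class.

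The spread of UMIs over cells was compared with that expected from the cells' depths. The variance of UMIs per cell over that expected from these depths was taken in each of the 9 classes of both libraries. Its median was 1.13 for Sp3, 1.15 for Sp1, 1.03 for Maz, 1.02 for Patz1, 1.12 for Sp4 and 0.825 for Sp2. The highest values were 3.38 for Sp1 in SP3-null HE, 1.84 for Sp4 in SP3-null IAC, 1.58 for Sp1 in wild-type conflux AE and 1.54 for Patz1 in SP3-null HE, and the lowest was 0.525 for Sp2 in SP3-null HE. The largest number in a single cell was 9, for Sp3 in wild-type other endothelium and Wnt-low AE and for Maz in IAC of both libraries and SP3-null HE. Where a value is above 1 the counting interval is too narrow.

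Profiles over the 9 classes were compared between the libraries and with other genes as a description, on log2(CPM + 1), and these points share their libraries and the depth of each class. The Pearson correlation of a gene's profile in the wild-type with that in the SP3-null library was 0.92 for Sp1, 0.91 for Patz1, 0.83 for Sp3, 0.73 for Maz, 0.54 for Sp4 and 0.44 for Sp2. Among 9895 genes with at least 200 UMIs in each library, the profiles most like Patz1 were those of Slc25a36, a mitochondrial pyrimidine nucleotide carrier, Ttc14 and Rsbn1, with a mean correlation over both libraries of 0.97, 0.97 and 0.97. For Sp1 they were Gm15261 (0.97), Rab27a, a small GTPase of secretory vesicles (0.96), and Hoxa7, a homeobox factor (0.95). For Maz they were AW209491 (0.94), the zinc finger factor Plagl2 (0.93) and the chaperone Hspa4l (0.93). For Sp3 they were Cdc73, a subunit of the PAF1 complex (0.91), Btaf1, a TBP-associated ATPase (0.91), and Trappc5 (0.90). For Sp4 they were Blcap (0.87), Mesd, a chaperone of LRP receptors (0.86), and Zfyve21 (0.85), and for Sp2 they were Rbm19 (0.94), Smpd4 (0.92) and Fance, a Fanconi anaemia protein (0.86). These values describe the 9 classes and were not tested.

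The relatives and cofactors of SP factors were read from lists, each against 8.82% lower and 4.04% higher genes past 1.2-fold. Of 17 KLF factors, which share the zinc finger domain with SP factors, 11 had at least 200 UMIs, 2 were lower past 1.2-fold, none was higher, and the median log2 ratio was -0.12. Klf12, a repressor, stood at 8.36 CPM in wild-type cells against 5.78 CPM in the SP3-null sum (log2 ratio -0.53, -0.78 to -0.29), and Klf16 (-0.27, -0.51 to -0.03) was named after its value was seen. Klf2, the flow-induced KLF of endothelium, had a log2 ratio of -0.23 (-0.27 to -0.19), Klf6 one of -0.24 (-0.30 to -0.18), Klf7 one of -0.04 (-0.09 to 0.01) and Klf13 one of 0.10 (0.03 to 0.17). The study, which showed Klf2 in single endothelial cells, described it as unaffected by SP3 loss. Conflux AE was the only class in which Klf2 was higher in the SP3-null library, at 380 against 399 CPM. In Wnt-high AE it stood at 297 against 280 CPM, wild-type first. Larger differences were seen in pre-HE, at 491 against 332 CPM, and in HE, at 195 against 136 CPM. The Klf2 ratio of the summed endothelium was within 1.2-fold.
Of the 5 other SP factors on the list none had 200 UMIs, and together they summed to 0.523 CPM in wild-type cells against 0.963 CPM in the SP3-null sum. Of 11 other zinc finger factors of GC-rich DNA with 200 UMIs, 1 was lower and none higher past 1.2-fold, with a median of -0.02. That 1 was Egr1, an immediate early factor that also binds GC-rich sites, at 21.5 against 12.4 CPM (log2 ratio -0.79, -0.95 to -0.63). Egr1 was lower in 8 classes, and in HE it stood at 16.9 CPM in wild-type cells against 46.9 CPM in the SP3-null library. Ctcf was at -0.02 (-0.08 to 0.03), Zfp148, which binds GC-rich DNA and can compete with SP factors, at -0.06 (-0.13 to 0.01), Vezf1 at 0.05 (-0.04 to 0.13) and Zbtb17 at 0.08 (-0.13 to 0.29).

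None of 18 coactivators and corepressors was past 1.2-fold in either direction, and the median was -0.05. The deacetylases Hdac1 and Hdac2 stood at -0.06 (-0.12 to 0.01) and -0.01 (-0.07 to 0.05), the acetyltransferase Crebbp at -0.08 (-0.15 to -0.003), and the Mediator subunits Med23, lowest of the list, and Med14, highest, at -0.25 (-0.43 to -0.06) and 0.10 (-0.10 to 0.30). Of 17 enzymes and modifiers of the SUMO and O-GlcNAc pathways, 1 was lower and none higher, and the median was 0.02. It was Pias3, a SUMO ligase, at 6.46 against 4.34 CPM (-0.58, -0.86 to -0.29). The modifier gene Sumo2 was at 0.05 (0.03 to 0.07) and the protease gene Senp5 at 0.14 (0.02 to 0.27).

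Genes known as GC-box targets lay on both sides of 0. Of 14 with at least 200 UMIs, 3 were lower and 2 higher past 1.2-fold, 7 were below and 7 above 0, and the median was -0.02. Cdkn1a, the cell cycle inhibitor p21, stood at 43.6 against 65.3 CPM (log2 ratio 0.58, 0.50 to 0.67), and most of it came from Wnt-high AE, at 163 against 212 CPM (log2 ratio 0.38). Wnt-high AE gave 17.4% of the UMIs of the wild-type sum and 22.5% of those of the SP3-null sum. With the 6 classes weighted alike the log2 ratio of Cdkn1a was 0.25, and in pre-HE and Wnt-low VE it was -1.02 and -0.31. Cad, an enzyme of pyrimidine synthesis, was at -0.29 (-0.42 to -0.15). The VEGF receptor gene Kdr was at 0.00 (-0.02 to 0.03), Flt1 at 0.20 (0.16 to 0.23), and Birc5, which encodes survivin, at -0.04 (-0.07 to -0.01). Named after their values were seen, Tk1, thymidine kinase, stood at -0.28, Myc at -0.28, and Odc1, ornithine decarboxylase, at 0.35.

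Genes with more GC boxes in their promoter window were lower in the SP3-null library more often, by a small amount. Of the 10146 genes, 8153, 80.4%, had a window, and for genes with several starts the window with the most GGGCGG matches on either strand was used. The share lower past 1.2-fold was 7.07% of 2277 genes without a GC box, 6.52% of 2178 with 1, 8.97% of 1550 with 2, 10.2% of 1029 with 3 and 13.9% of 1119 with 4 or more. The share higher past 1.2-fold went from 5.62% without a GC box to 3.86%, 3.23%, 3.30% and 1.97%. The median log2 ratio went from -0.001 to -0.011, -0.023, -0.046 and -0.051, so that the typical gene differed little in any group.
Windows with more GC boxes were richer in G and C, with a median of 55.7% without a GC box and 71.3% with 4 or more, and median expression was 21.4 against 26.1 CPM. Among windows of 60 to 70% G and C, the share lower was 6.55% of 595 genes without a GC box and 16.8% of 416 genes with 4 or more, and the share higher 5.88% and 1.44%. Among windows of 70 to 80% G and C the shares lower were 3.70% of 81 and 13.9% of 526 genes, and the shares higher 6.17% and 2.66%. Among windows of 50 to 60% the shares lower were 7.01% of 1084 and 15% of 40 genes, and the shares higher 4.52% and 5%, so that the higher direction did not keep its order there. In AE alone the share lower was 11.1% and 16.5%, and in VE alone 6.59% and 13.7%. GGGAGGG is the run of G that MAZ binds, and 22.0% of all windows hold it. The shares lower were 7.65%, 10.8%, 9.80%, 14.1% and 8.51% for 0, 1, 2, 3 and 4 or more matches, with no steady order. These groups held 5557, 1839, 500, 163 and 94 genes, so that the last shares rest on few genes. The median log2 ratio fell at each step, from -0.016 to -0.029, -0.032, -0.039 and -0.056, as it did for GC boxes. Median G and C of the window rose over the same groups, from 60.7% to 71.3%. Ranges of G and C were not set apart for GGGAGGG, so that its part and that of G and C content are not separated. Genes are not independent replicates, and genotype, pool and library cannot be told apart here either.
The members themselves fell on both sides of this pattern. Sp4, with 5 GC boxes, had a log2 ratio of 0.14, Maz, with 5 at its richer start, one of -0.08, and Sp1, with 4, one of 0.00. Patz1 and Sp2, each with 2 at their richest start, had log2 ratios of 0.01 and -0.07. Sp3 had 5 at its richer start and a log2 ratio of -0.38. It is the gene that the allele alters, so that its value is not read as part of this pattern.

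**Figure D5:**
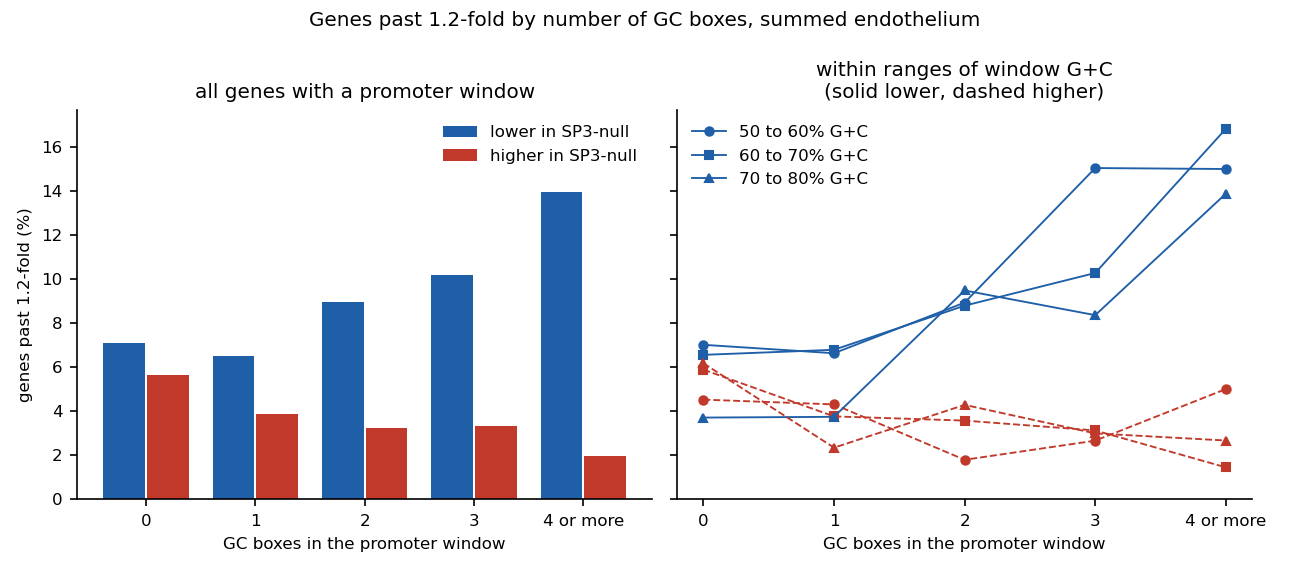
Percent of genes past 1.2-fold (vertical axis from 0) in the summed endothelium by number of GC boxes in the promoter window (horizontal axis), lower (blue) or higher (red) in the SP3-null library, for all 8153 genes with a window (left) and within 3 ranges of window G and C content (right, solid lines lower, dashed lines higher). The share lower went from 7.07% without a GC box to 13.9% with 4 or more, and the share higher from 5.62% to 1.97%.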

How the data were processed

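Per the labels, 1 wild-type and 1 SP3-null library of sorted E10.5 aortic cells were aligned with Cell Ranger, version not given in the sources used here, to mm10 (GRCm38). The authors deposited unnormalized counts of UMIs for each gene in each cell, after removing barcodes under 1000 UMIs or 1000 genes. Their deposited table gives each cell's class, set by the majority of its 3 nearest neighbours in a reference map (ties at random), and its mitochondrial fraction. Class names are those deposited. The table lists 939 wild-type and 922 SP3-null AE cells, more than the study's listing, and cells with as few as 998 genes. Matrix sums lay 0 to 197 UMIs below the deposited totals. The libraries shared 5 barcodes of 8405. Library totals were 79456081 and 71154918 UMIs, with class medians from 8850 to 31009 UMIs per cell. Doublets were not called and remained in all values. An alternative left out the cells with the most UMIs.

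UMIs were summed per class and library and divided by the sum over all genes (CPM). Intervals are exact Poisson for CPM, exact conditional for ratios and Clopper-Pearson for shares. Other endothelium stayed out of the sum. Classes needed 30 cells per library. Named are the 6 members, for each list its 3 genes with the most UMIs and its highest and lowest ratio among genes with 200 UMIs, and for each member the 3 genes with the most similar class profile. Some genes that this rule names are not reported here. Members, lists and rules were chosen with earlier results of these data known. Chosen after seeing these values were the depth and G and C ranges, and leaving out top cells and weighting the cells of a class alike. Promoter windows were matched by symbol or synonym. Ratio intervals were tried on simulated counts with Poisson spread only, so that spread beyond counting error was not covered. Alternatives used edgeR 4.0.16 TMM and DESeq2 1.42.0 size factors, only for scaling. Python 3.11.15, numpy 2.4.6, scipy 1.17.1, pandas 2.3.3, matplotlib 3.10.9 and R 4.3.3 were used.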

Additional observations from a re-analysis of the deposited data

Results flagged for a closer look

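The deposited table calls 1 wild-type cell, with 104553 UMIs, a fetal liver hematopoietic stem cell, and this cell entered no comparison of classes. It held 5 UMIs of Sp1, 7 of Maz and 6 of Patz1, each above the 3 counts taken as the floor of detection. Sp3 had 3, Sp2 had 2 and Sp4 had 1. The SP3-null library had no such cell.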

How the results depend on the processing

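Of 103 alternatives, 3 moved a count by over 1.5-fold and 3 turned the sign of a ratio that was past 1.2-fold. In the other 97 a count stayed within 1.5-fold or a value stayed inside its main counting interval, but 14 of these turned the sign of a ratio that was not past 1.2-fold, 6 for Sp1, 3 for Patz1, 2 for Sp2, 2 for Sp4 in the sum and 1 for Sp4 in Wnt-low VE. Over the 12 alternatives for the summed endothelium, the log2 ratio of Sp3 stayed between -0.42 and -0.33, that of Maz between -0.12 and -0.02, that of Sp1 between -0.02 and 0.11, that of Patz1 between -0.07 and 0.12, that of Sp2 between -0.21 and 0.10 and that of Sp4 between -0.08 and 0.37. Genes past 1.2-fold numbered 1305 in the main count, 2270 with at least 50 UMIs, 423 with at least 1000 UMIs and 5339 with no minimum, out of 10146, 11814, 6958 and 16063 genes counted. TMM and size factors gave 1277 and 1271. Chosen after seeing the data, SP3-null Sp1 in pre-HE over AE went from 0.32 to -0.11 without the 3 cells with the most UMIs in each class and to -0.078 against AE cells under 10000 UMIs. Also chosen after seeing the data, Sp1 in HE, SP3-null over wild-type, went from -0.30 to 0.71 with each cell weighted alike. The causes were not tested. The gap in genes lower past 1.2-fold between 4 or more and 0 GC boxes was 6.87 percentage points and 5.42 to 7.09 under 4 alternatives. No paired analysis was possible because each genotype has 1 library, which also left no replicate to leave out.

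Depth limits Sp2 and Sp4, with 5 to 22 UMIs per library in conflux AE, pre-HE and HE.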
